A study of Mus musculus with 28 samples.

Results

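Camp, Ltf, Pglyrp1 and Itgb2l are 4 genes of proteins that neutrophils store in granules, most of them in the secondary (specific) granules. They were picked by symbol from the 648 assays, for 584 genes, of a mouse inflammation qPCR panel, and each had 1 assay. They were picked because of how they differed between tumor-bearing and healthy mice in these same samples. That difference is therefore given below as a description with its error and without a p-value, and the tests are kept to changes between days and to how the genes varied among mice of 1 group.

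The material was the tissue that grew into microporous polycaprolactone (PCL) scaffolds implanted in 28 female BALB/c mice, 1 sample per mouse. Tumor-bearing mice had received 4T1-luc2-tdTomato cells, a reporter line made from the mouse mammary carcinoma 4T1, and their implants were taken 7 days (3 mice), 14 days (8 mice) and 21 days (3 mice) later. Healthy mice, which carried the same implant, were sampled at the same times in the same numbers, 3, 8 and 3. The cell line is also named in the labels of the healthy mice, and groups were formed by the labelled condition at the time of analysis.

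Neutrophils make their granules in sequence while they mature in the bone marrow. Primary granules, with elastase and proteinase 3, are filled at the promyelocyte stage, and secondary granules at the myelocyte and metamyelocyte stages, with transcription factors of the C/EBP family and PU.1 acting on many of their genes. Mature neutrophils in blood and tissue carry the finished proteins and make much less of the messenger RNA.

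Camp encodes the precursor of the antimicrobial peptide CRAMP, and Ltf encodes lactoferrin, which binds iron. Pglyrp1 encodes a secreted protein that recognises bacterial peptidoglycan. Itgb2l encodes Pactolus, a relative of the integrin beta-2 subunit known from mouse neutrophils. Camp (assay Mm00438285_m1) and Ltf (Mm00434787_m1) both lie on chromosome 9, 1.17 Mb apart, while Pglyrp1 (Mm00437150_m1) lies on chromosome 7 and Itgb2l (Mm00492710_m1) on chromosome 16. The amplicons, the stretches copied by the assays, were 77 bp for Camp, 67 bp for Ltf, 65 bp for Pglyrp1 and 92 bp for Itgb2l.

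The 250 bases before the start of each gene are shown because the 4 genes were picked for moving in 1 direction, and because C/EBP and PU.1 are the factors best known for secondary granule genes. They are RefSeq sequence of the GRCm38.p6 build, which is C57BL/6J and not BALB/c, and all 4 genes were found there. Each is written 5′ to 3′ on the strand of its gene. Capitals mark matches, on either strand, to the letters TTNCNNAA for C/EBP and GAGGAA for PU.1. No match overlapped a match of the other motif.
Camp, chr9:109849457-109849706, minus strand: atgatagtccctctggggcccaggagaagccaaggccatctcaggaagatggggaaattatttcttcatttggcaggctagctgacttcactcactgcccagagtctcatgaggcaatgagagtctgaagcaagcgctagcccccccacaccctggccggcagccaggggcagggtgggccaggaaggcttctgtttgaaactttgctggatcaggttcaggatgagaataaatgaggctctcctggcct
Ltf, chr9:111019042-111019291, plus strand: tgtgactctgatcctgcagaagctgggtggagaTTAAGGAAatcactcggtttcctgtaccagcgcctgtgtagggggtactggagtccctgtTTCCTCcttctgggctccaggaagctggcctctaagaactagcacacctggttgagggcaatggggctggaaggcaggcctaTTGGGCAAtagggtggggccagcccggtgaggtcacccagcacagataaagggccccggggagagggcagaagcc
Pglyrp1, chr7:18884440-18884689, plus strand: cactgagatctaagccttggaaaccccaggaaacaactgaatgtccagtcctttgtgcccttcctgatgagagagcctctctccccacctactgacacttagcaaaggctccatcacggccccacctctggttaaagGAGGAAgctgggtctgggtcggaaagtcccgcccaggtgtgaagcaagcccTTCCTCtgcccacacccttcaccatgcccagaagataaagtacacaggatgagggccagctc
Itgb2l, chr16:96443615-96443864, minus strand: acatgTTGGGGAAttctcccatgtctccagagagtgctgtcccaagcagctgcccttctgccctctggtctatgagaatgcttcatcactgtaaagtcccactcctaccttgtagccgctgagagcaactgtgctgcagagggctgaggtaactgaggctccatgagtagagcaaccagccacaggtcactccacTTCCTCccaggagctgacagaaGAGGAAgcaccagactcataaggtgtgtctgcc

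The 4 windows did not share a match. Ltf held both motifs, with C/EBP matches from -217 to -210 and from -75 to -68 and a PU.1 match from -157 to -152, counted from the gene start. Itgb2l also held both, a C/EBP match from -245 to -238 and PU.1 matches from -55 to -50 and from -33 to -28. Pglyrp1 held PU.1 matches from -113 to -108 and from -62 to -57 and no C/EBP match, and these letters do not occur in the Camp window. Among 27025 mouse promoters of the same length, 36.9% held the C/EBP letters, 23.1% the PU.1 letters and 8.86% both. A match is a description of the sequence and not a binding site.

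Levels are given as relative quantity, the authors' normalized value. It is 2 to the power of the reference Cq minus the Cq of the gene, where Cq is the cycle number at which the fluorescence of a reaction becomes detectable. Values are printed multiplied by 1000, and group means on the log2 scale of the relative quantity itself. Assays differ in their efficiency and reading, so levels are compared between mice for 1 gene and never between genes. Of 648 assays, 475 to 587 gave a Cq per sample. The fewest were found in 3 samples of day 14, tumor-bearing replicate 21 (489) and healthy replicate 13 (475), both run on panel E, and healthy replicate 14 (535) on panel F, and the fits, spreads and likenesses that rest on them are also given without them where they move. The neutrophil genes S100a8, S100a9, Il8rb, Il8ra and Fpr1 each gave a Cq in at least 27 of 28 samples.

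Detection is given as a count for each gene. How often an assay of the panel gave a Cq in more tumor-bearing than healthy samples was not counted. Camp, Ltf and Pglyrp1 each gave a Cq in 14 of 14 tumor-bearing samples, against 12 of 14 healthy ones for Camp and 13 of 14 for Ltf and for Pglyrp1. The healthy sample without a Cq was replicate 14 for Ltf and replicate 13 for Pglyrp1, both among the 3 samples with the fewest measured assays. For these genes the gap therefore rests on samples in which many assays gave no Cq. Itgb2l gave a Cq in 11 of 14 tumor-bearing samples and in 5 of 14 healthy samples. For Itgb2l this depended on the day. At day 7 no tumor-bearing sample (0 of 3) and 2 of 3 healthy samples gave one. At day 14 all 8 of 8 tumor-bearing mice and 1 of 8 healthy mice did, and at day 21 the counts were 3 of 3 tumor-bearing and 2 of 3 healthy mice. Several of these reactions were late: counting only a Cq up to 30 left 5 of 8 tumor-bearing mice and 1 of 8 healthy mice at day 14, and 0 of 3 samples of either condition at day 7. A reaction without a Cq is not evidence that the transcript was absent. The files write such reactions as Undetermined on panels A and B and as NA on the other panels, so that the code follows the panel.

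**Figure D1:**
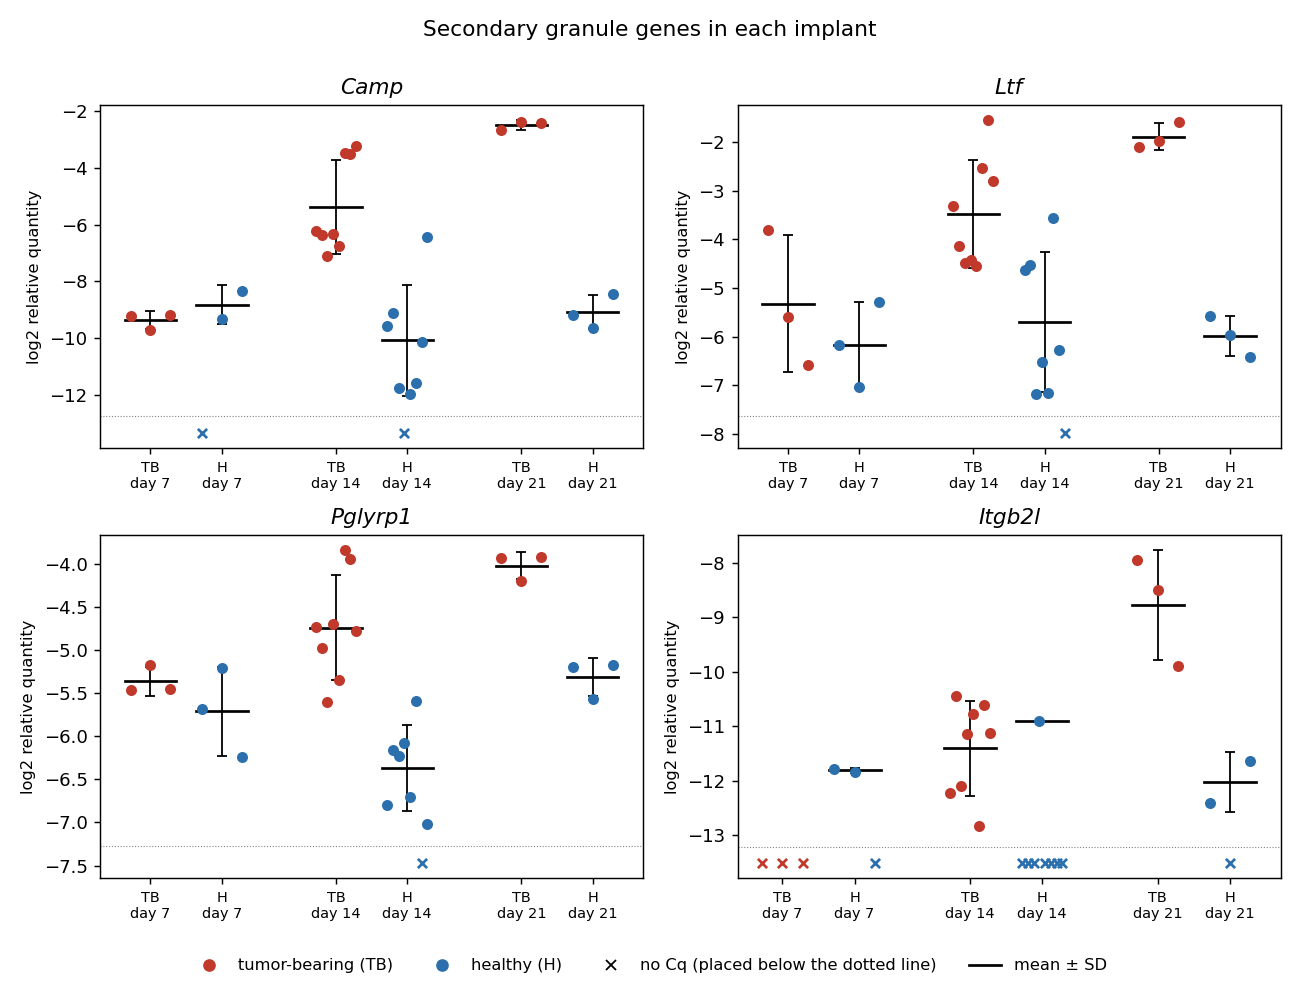
Log2 relative quantity (y axis) of each gene in every implant, with tumor-bearing (TB, red) left of healthy (H, blue) at days 7, 14 and 21; bars are mean ± SD and crosses mark reactions without a Cq. At day 21 the 3 tumor-bearing samples lie above all measured healthy samples for each of the 4 genes, while at day 7 the conditions overlap for Camp, Ltf and Pglyrp1.

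Camp showed the widest range of the 4 genes. At day 7 its relative quantity (×1000) was 1.70, 1.19 and 1.75 in tumor-bearing mice, against 1.58 and 3.10 in the 2 healthy mice with a Cq. At day 14 it was 7.27 at the lowest, 12.9 at the median and 106.5 at the highest in 8 tumor-bearing mice, against 0.249, 0.900 and 11.5 in the 7 healthy mice with a Cq. At day 21 it was 156, 190 and 188 in tumor-bearing mice and 1.71, 1.27 and 2.90 in healthy mice. The conditions overlapped at day 7, 6 of 8 tumor-bearing mice lay above every healthy mouse at day 14, and the conditions were fully apart at day 21. The 1 healthy mouse that reached into the tumor-bearing range at day 14, replicate 14, was among the 3 samples with the fewest measured assays.

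On the log2 scale the mean of Camp was -9.36 ± 0.31 (SD, n = 3) in tumor-bearing mice and -8.82 ± 0.69 (SD, n = 2) in healthy mice at day 7. At day 14 it was -5.38 ± 1.65 (SD, n = 8) in tumor-bearing and -10.07 ± 1.96 (SD, n = 7) in healthy mice. At day 21 it was -2.50 ± 0.16 in tumor-bearing and -9.08 ± 0.60 in healthy mice (SD, n = 3 each). Ordered by mean, tumor-bearing mice of day 21 came first and those of day 14 second, each group without overlap with the next. Healthy mice of days 7 and 21, tumor-bearing mice of day 7 and healthy mice of day 14 followed, and each of these overlapped its neighbour.

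The fitted difference in Camp, tumor-bearing minus healthy, on days 7, 14 and 21 was -0.48 ± 1.25, 4.81 ± 0.73 and 6.59 ± 1.11 (log2 ± SE). As folds these are 0.718 (95% interval 0.119 to 4.33), 28.0 (9.75 to 80.4) and 96.2 (19.5 to 476). The authors' deposited table gives 0.688, 25.9 and 96.2 for the same days. In pairs matched for day and panel, tumor-bearing was higher in 0 of 2 pairs at day 7, 4 of 4 at day 14 and 3 of 3 at day 21. The day 14 difference was 5.16 without the 3 samples with the fewest measured assays, and 3.55 when the 3 healthy reactions with a Cq above 30 were treated as missing. In bulk tissue, a change in the number of cells of a type and a change in the RNA per cell cannot be told apart.

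The 8 tumor-bearing mice of day 14 fell into separate clusters for Camp. Replicates 20, 21 and 22 had 88.9, 87.2 and 106.5, and the other 5 mice had between 7.27 and 13.3. The empty stretch between them was 2.71 log2 units, 70% of the range of the group. The 3 high mice were run on panels B, E and F, and the 5 low mice on panel G (4 mice) and panel A. The part of the panel in this split was not tested. The same 3 mice were the highest 3 for Ltf, and for Pglyrp1 they ranked 1, 2 and 5 of 8. For Itgb2l they ranked 8, 2 and 4, so that the mouse with the lowest Itgb2l, replicate 20, was second for Camp.

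Ltf differed less and varied more at day 7. Its relative quantity (×1000) was 72.0, 20.7 and 10.5 in tumor-bearing mice of day 7, against 13.8, 7.56 and 25.5 in healthy mice. At day 14 it was 43.0 at the lowest, 78.5 at the median and 342 at the highest in tumor-bearing mice, against 6.87, 12.9 and 85.01 in the 7 healthy mice with a Cq. At day 21 it was 234, 253 and 336 in tumor-bearing mice and 20.9, 15.99 and 11.7 in healthy mice. Only at day 21 were the conditions apart. At day 14, 4 of 8 tumor-bearing mice lay above all healthy mice, the highest of which was replicate 12 at 85.01.

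The mean log2 value of Ltf was -5.32 ± 1.41 in tumor-bearing and -6.17 ± 0.88 in healthy mice at day 7 (SD, n = 3 each), and -3.47 ± 1.11 (SD, n = 8) in tumor-bearing and -5.70 ± 1.44 (SD, n = 7) in healthy mice at day 14. At day 21 it was -1.89 ± 0.28 in tumor-bearing and -5.99 ± 0.42 in healthy mice (SD, n = 3 each). Ordered by mean, the tumor-bearing groups of days 21, 14 and 7 came before the healthy groups of days 14, 21 and 7, and each group overlapped the next. The fitted difference on days 7, 14 and 21 was 0.85 ± 0.88, 2.28 ± 0.59 and 4.10 ± 0.88. The folds were 1.80 (95% interval 0.510 to 6.38), 4.86 (2.09 to 11.3) and 17.2 (4.86 to 60.8), and the authors' deposited table gives 1.80, 4.67 and 17.2. Tumor-bearing was higher in 2 of 3 panel-matched pairs at day 7 and in 3 of 3 at days 14 and 21. Without the 3 samples with the fewest measured assays the day 14 difference was 1.85.

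Pglyrp1 had the smallest differences and the tightest groups. Its relative quantity (×1000) at day 7 was 22.8, 27.8 and 22.8 in tumor-bearing mice and 19.5, 27.1 and 13.2 in healthy mice. At day 14 it was 20.6 at the lowest, 36.9 at the median and 69.7 at the highest in tumor-bearing mice, against 7.69, 13.4 and 20.8 in the 7 healthy mice with a Cq. At day 21 it was 65.5, 54.3 and 65.9 in tumor-bearing mice and 27.2, 21.1 and 27.8 in healthy mice. At day 14 the groups touched only at their edge, 7 of 8 tumor-bearing mice lying above every healthy mouse. At day 21 they were apart.

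The mean log2 value of Pglyrp1 was -5.36 ± 0.17 in tumor-bearing and -5.71 ± 0.52 in healthy mice at day 7 (SD, n = 3 each), and -4.74 ± 0.61 (SD, n = 8) in tumor-bearing and -6.37 ± 0.50 (SD, n = 7) in healthy mice at day 14. At day 21 it was -4.02 ± 0.16 in tumor-bearing and -5.31 ± 0.22 in healthy mice (SD, n = 3 each). Ordered by mean, tumor-bearing mice of days 21 and 14 came first, then healthy mice of day 21, tumor-bearing mice of day 7 and healthy mice of days 7 and 14, and each group overlapped the next. The fitted difference on these days was 0.35 ± 0.37, 1.65 ± 0.25 and 1.29 ± 0.37. The folds were 1.27 (95% interval 0.753 to 2.15), 3.15 (2.21 to 4.47) and 2.45 (1.45 to 4.14), against 1.27, 3.09 and 2.45 in the authors' deposited table. Tumor-bearing was higher in all 3 measured panel-matched pairs of each day, by 0.04 to 0.78 at day 7, 1.36 to 2.24 at day 14 and 1.24 to 1.36 at day 21. Without the 3 samples with the fewest measured assays the day 14 difference was 1.41.

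Itgb2l was the hardest of the 4 to detect, and its difference could be estimated at day 21 only. Its relative quantity (×1000) was 4.07, 2.75 and 1.05 in tumor-bearing mice of day 21, against 0.183 and 0.315 in the 2 healthy mice with a Cq. At day 14 the 8 tumor-bearing mice had 0.138 at the lowest, 0.443 at the median and 0.719 at the highest, against a single healthy value of 0.523. At day 7 none of the 3 tumor-bearing mice gave a Cq, and 2 healthy mice had 0.284 and 0.271. The 3 tumor-bearing mice of day 21 lay above every other sample, and all the other groups with a value overlapped their neighbours.

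The mean log2 value of Itgb2l was -8.78 ± 1.01 (SD, n = 3) in tumor-bearing and -12.02 ± 0.55 (SD, n = 2) in healthy mice at day 21, and -11.41 ± 0.87 (SD, n = 8) in tumor-bearing mice at day 14. The day 21 difference was 3.24 ± 0.70, a fold of 9.42 (95% interval 3.28 to 27.1), against 9.46 in the authors' deposited table. For day 14 the authors' deposited table gives a fold of 0.703, below 1. That value sets the 8 tumor-bearing mice against the 1 healthy mouse that gave a Cq, replicate 10, while 7 of 8 healthy mice gave none. That fold and the detection counts, 8 of 8 tumor-bearing against 1 of 8 healthy mice, point in opposite directions.

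**Figure D2:**
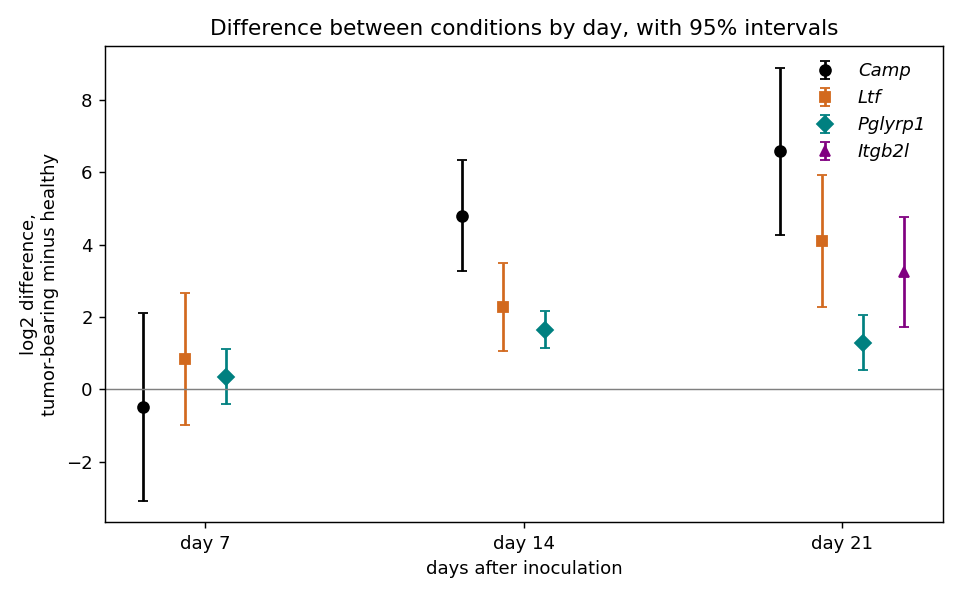
Fitted log2 difference, tumor-bearing minus healthy (y axis), of each gene at days 7, 14 and 21 (x axis), with 95% intervals. The intervals of Camp, Ltf and Pglyrp1 include 0 at day 7 and lie above 0 at days 14 and 21; Itgb2l could be estimated at day 21 only, at 3.24.

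How the difference changed between days could be estimated for Camp, Ltf and Pglyrp1, and not for Itgb2l. The tumor-bearing minus healthy difference of Camp was 5.29 ± 1.45 larger at day 14 than at day 7, and 1.78 ± 1.33 larger at day 21 than at day 14. For Ltf these steps were 1.43 ± 1.06 and 1.82 ± 1.06. For Pglyrp1 the first step was 1.31 ± 0.44 and the second -0.36 ± 0.44 (95% interval -1.27 to 0.55). The interval of the second step also included 0 for Camp (-0.98 to 4.54) and Ltf (-0.37 to 4.01). Whether the genes differ in these steps was not tested.

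At day 21 every tumor-bearing value lay above every healthy value for 4 of 4 genes, which was so for 10.3% of the 573 assays tested. At day 14 this held for 0 of the 3 genes with 2 or more values in both conditions and for 0.676% of 592 assays. Itgb2l, with 1 healthy value at day 14, is not among them. At day 7 it held for 0 of the 3 genes with values in both conditions and for 4.96% of 565 assays. The genes were picked on this difference, so the counts describe them and test nothing.

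Within the tumor-bearing mice, Camp was 4.04 ± 0.95 higher at day 14 than at day 7 and 2.65 ± 0.95 higher at day 21 than at day 14. The difference between days 21 and 7 was 6.69 ± 1.13, a fold of 103. In healthy mice the same changes in Camp were -1.25 ± 1.12, 0.87 ± 0.96 and -0.38 ± 1.26, each with a 95% interval that includes 0. Ltf in tumor-bearing mice was 3.42 ± 0.90 higher at day 21 than at day 7, against 0.16 ± 0.90 in healthy mice.

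The first day-to-day change of Pglyrp1 differed in sign between the conditions, and the second was above 0 in both. The change of Pglyrp1 from day 7 to day 14 was 0.65 ± 0.31 in tumor-bearing mice and -0.65 ± 0.32 in healthy mice. That from day 14 to day 21 was 0.71 ± 0.31 in tumor-bearing and 1.07 ± 0.32 in healthy mice. The latter is a fold of 2.10, with a 95% interval of 1.33 to 3.33. The healthy mean of day 14 was the lowest of the group means of Pglyrp1. Itgb2l in tumor-bearing mice was 2.61 ± 0.53 higher at day 21 than at day 14, and in healthy mice it was -0.24 ± 0.79 at day 21 relative to day 7. No p-value is given for these changes, because each holds part of the difference on which the genes were picked.

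The change between days averaged over both conditions was tested. With equal numbers of values in both conditions, its error would be close to uncorrelated with that of the difference. The numbers were not equal for these genes. Camp had 3 tumor-bearing against 2 healthy values at day 7, and Camp, Ltf and Pglyrp1 each had 8 against 7 at day 14. The average weights both conditions equally and so still holds part of the change in tumor-bearing mice. It is not independent of what the genes were picked for, and its p-values are no separate evidence for them. No gene of the 3 with enough values passed an adjusted p of 0.05 in any of the 3 steps in limma. From day 7 to day 14, Camp changed by 1.40 ± 0.74 (adjusted p = 0.331), Ltf by 1.18 ± 0.54 (adjusted p = 0.234) and Pglyrp1 by 0.00 ± 0.23 (adjusted p = 1). From day 14 to day 21, Camp changed by 1.76 ± 0.68 (adjusted p = 0.152), Ltf by 0.61 ± 0.54 (adjusted p = 0.535) and Pglyrp1 by 0.89 ± 0.23 (adjusted p = 0.0587). From day 7 to day 21, Camp changed by 3.16 ± 0.86 (adjusted p = 0.0511), Ltf by 1.79 ± 0.64 (adjusted p = 0.173) and Pglyrp1 by 0.89 ± 0.27 (adjusted p = 0.0698). For Camp the average joins unlike changes in tumor-bearing and healthy mice. From day 7 to day 14 these were opposite in sign, at 4.04 ± 0.95 in tumor-bearing and -1.25 ± 1.12 in healthy mice. From day 7 to day 21 they were 6.69 ± 1.13 in tumor-bearing and -0.38 ± 1.26 in healthy mice.

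Of all assays tested, 1.95% rose and 0.709% fell from day 7 to day 14, 0.876% rose and 0% fell from day 14 to day 21, and 1.61% rose and 0.536% fell from day 7 to day 21, against 0 of 3 of these genes in each. The unadjusted p was under 0.05 for Ltf alone in the first step, for Camp and Pglyrp1 in the second, and for all 3 genes from day 7 to day 21. Over all assays 105, 111 and 94 had an unadjusted p under 0.05 in these steps. Some adjusted p-values lie near the threshold. Without the 3 samples with the fewest measured assays, the change from day 14 to day 21 was 2.42 for Camp and 0.89 for Pglyrp1, each with an adjusted p of 0.0186 in limma, and the number of assays past the threshold was 65 against 5 with all samples.

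Camp and Ltf varied more among mice of 1 group than most assays of the panel. At day 14 the SD of Camp among tumor-bearing mice was 1.65, larger than for 98.8% of 564 assays, and among healthy mice 1.96, larger than for 95.2% of 557 assays. The SD of Ltf was 1.11 in tumor-bearing mice and 1.44 in healthy mice, larger than for 93.1% and 92.3% of the assays. Pglyrp1, with 0.61 in tumor-bearing and 0.50 in healthy mice, was nearer to the median assay, at 0.37 in tumor-bearing and 0.49 in healthy mice. Itgb2l had an SD of 0.87 in tumor-bearing mice. Without the 3 samples with the fewest measured assays, the SD of Camp was 1.59 in tumor-bearing and 1.35 in healthy mice, and that of Ltf 0.85 in tumor-bearing and 1.55 in healthy mice. For Camp this was larger than for 98.8% of assays in tumor-bearing and 94.8% in healthy mice, and for Ltf larger than for 82.2% in tumor-bearing and 96.6% in healthy mice.

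Among the 8 tumor-bearing mice of day 14, Ltf and Pglyrp1 were higher in the same mice. Pearson's r was 0.84 (exact permutation p = 0.00637, adjusted p = 0.0382 over 6 relations) and Spearman's rho was 0.79 (exact permutation p = 0.0279, adjusted p = 0.168), both two-sided. Without the 2 mice farthest from the median of Ltf, r was 0.59. With 1 mouse left out at a time, r ran from 0.78 to 0.91, and the adjusted p passed 0.05 in 4 of 8 cases. Without tumor-bearing replicate 16, 17, 19 or 21 the adjusted exact permutation p was 0.0708, 0.0577, 0.0869 and 0.0649. Replicate 21 is among the 3 samples with the fewest measured assays. The 2 highest mice for both genes, replicates 20 and 21, were run on panels B and E. Panel G holds 4 of these mice and the other panels 1 each, fewer than the 6 required here for a correlation, so none is given within a panel. The permutation took no account of the panel, and the part of the panel in this relation was not tested.

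No relation of Itgb2l with Ltf or Pglyrp1 was detected in these mice. Its r was -0.10 with Ltf (exact permutation p = 0.825, adjusted p = 0.825) and -0.18 with Pglyrp1 (exact permutation p = 0.668, adjusted p = 0.801), with rho of -0.07 and -0.29. Its reactions there were late, with Cq between 28.8 and 31.8. Because of the separate clusters of Camp, no r is given for it within the tumor-bearing mice of day 14 alone. The rule for clusters, an inner gap above 50% of the range, was set after the values were seen.

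In the 6 healthy mice of day 14 with values for a pair of genes, r was 0.46 for Camp and Ltf (exact permutation p = 0.314), -0.56 for Camp and Pglyrp1 (exact permutation p = 0.267) and 0.41 for Ltf and Pglyrp1 (exact permutation p = 0.381). The adjusted p was 0.571 for each, and rho was 0.60, -0.31 and 0.49. Leaving out the 2 mice farthest from the median of the first gene gave 0.08, -0.43 and 0.02. At this number of mice none of these relations could be told from 0.

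**Figure D3:**
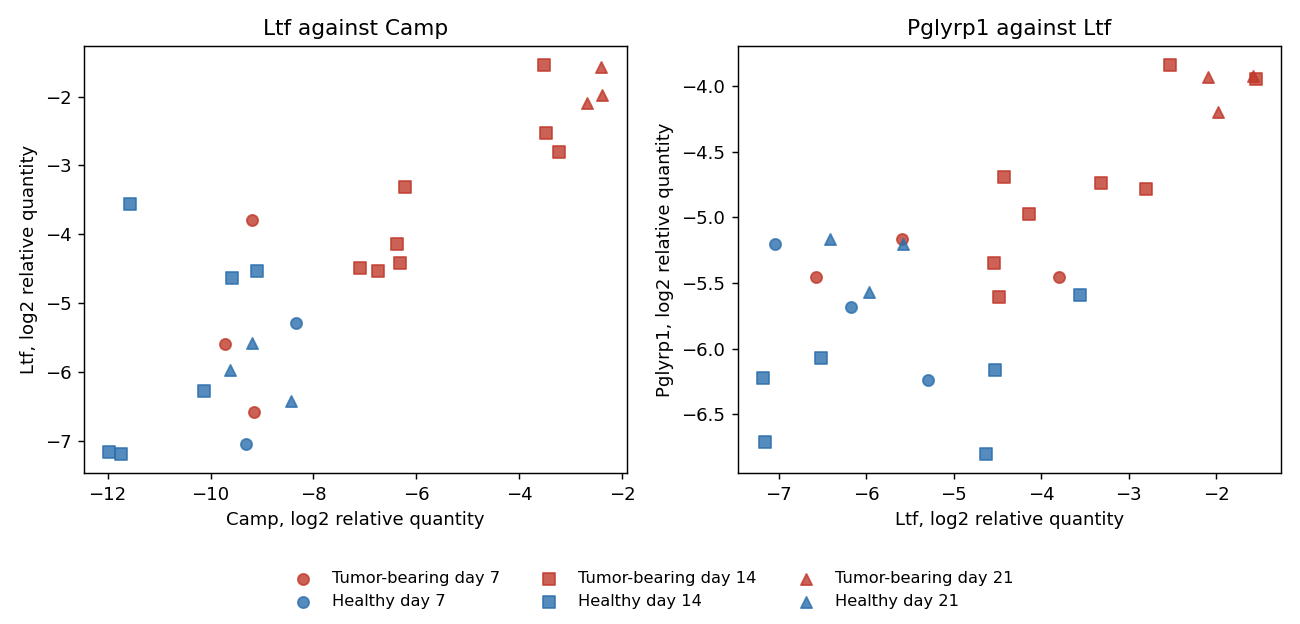
Ltf against Camp (left) and Pglyrp1 against Ltf (right), both axes in log2 relative quantity, 1 point per implant with values for both genes; red marks tumor-bearing and blue healthy mice, and circles, squares and triangles mark days 7, 14 and 21. The tumor-bearing mice of day 14 (red squares) form separate clusters along the Camp axis, with 3 mice beside those of day 21.

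To see which assays varied most like each gene among mice of the same group, deviations from the group means were correlated over all samples and 556 assays. For Pglyrp1 the closest were S100a9 (r = 0.91, n = 27), S100a8 (r = 0.85, n = 26) and Cxcl2 (r = 0.80, n = 25). S100a8 and S100a9 encode the subunits of calprotectin, abundant in the neutrophil cytoplasm, and Cxcl2 encodes a chemokine that attracts neutrophils. The value of S100a9 was between 0.88 and 0.92 under 5 other settings, among them leaving out either group of day 14.

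For Camp the closest were Pycard (r = 0.79, n = 25), the adaptor protein of inflammasomes, Hdac5 (r = 0.70, n = 26), a histone deacetylase, and Hmgb1 (r = 0.69, n = 26), a chromatin protein. For Hmgb1 r was 0.28 without the healthy mice of day 14 and 0.45 without the 3 samples with the fewest measured assays, where Pycard had 0.70 and Hdac5 0.57. For Ltf they were Serpina3c (r = 0.74, n = 26), a serine protease inhibitor, Cfd (r = 0.69, n = 26), which is complement factor D, and Pycard (r = 0.66, n = 26). Without the healthy mice of day 14, r with Ltf was 0.53 for Serpina3c, 0.37 for Cfd and 0.67 for Pycard. Without the tumor-bearing mice of day 14 it was 0.86 for Serpina3c, 0.86 for Cfd and 0.57 for Pycard. The values of Camp include the tumor-bearing mice of day 14, which form separate clusters for Camp. Without that group r with Camp was 0.68 for Pycard, 0.74 for Hdac5 and 0.82 for Hmgb1. All these values describe samples that share panels and a normalizer and come with no test.

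Among the 4 genes themselves, likeness was uneven. Ltf ranked 16 of 556 for Camp (r = 0.57, n = 25) and Camp ranked 10 for Ltf, while Pglyrp1 ranked 188 for Camp (r = 0.14, n = 25). Between Ltf and Pglyrp1 r was 0.41 (n = 26). Without the tumor-bearing mice of day 14, r was 0.34 for Camp and Ltf and 0.0851 for Ltf and Pglyrp1. The value for Camp and Pglyrp1 turned with the samples used, at -0.49 without the tumor-bearing mice of day 14 and 0.62 without the healthy mice of day 14. The 0.62 includes the separate clusters of Camp. Without the 3 samples with the fewest measured assays r was 0.32 for Camp and Pglyrp1 and 0.30 for Ltf and Pglyrp1. Itgb2l was measured in too few samples to be compared.

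Samples matched for day and panel could also be set against each other directly. For Camp, the 4 pairs of day 14 differed by 5.22 on panel A, 8.07 on panel B, 6.60 on panel E and 3.21 on panel F, and the 3 pairs of day 21 by 6.02 to 7.23. The lowest of the day 14 pairs holds healthy replicate 14, the healthy mouse with the highest Camp. For Ltf the pairs ran from 1.03 to 4.73 at day 14 and from 3.48 to 4.85 at day 21. For Itgb2l the pairs of day 21 differed by 1.73 on panel C and 4.47 on panel E.

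**Figure D4:**
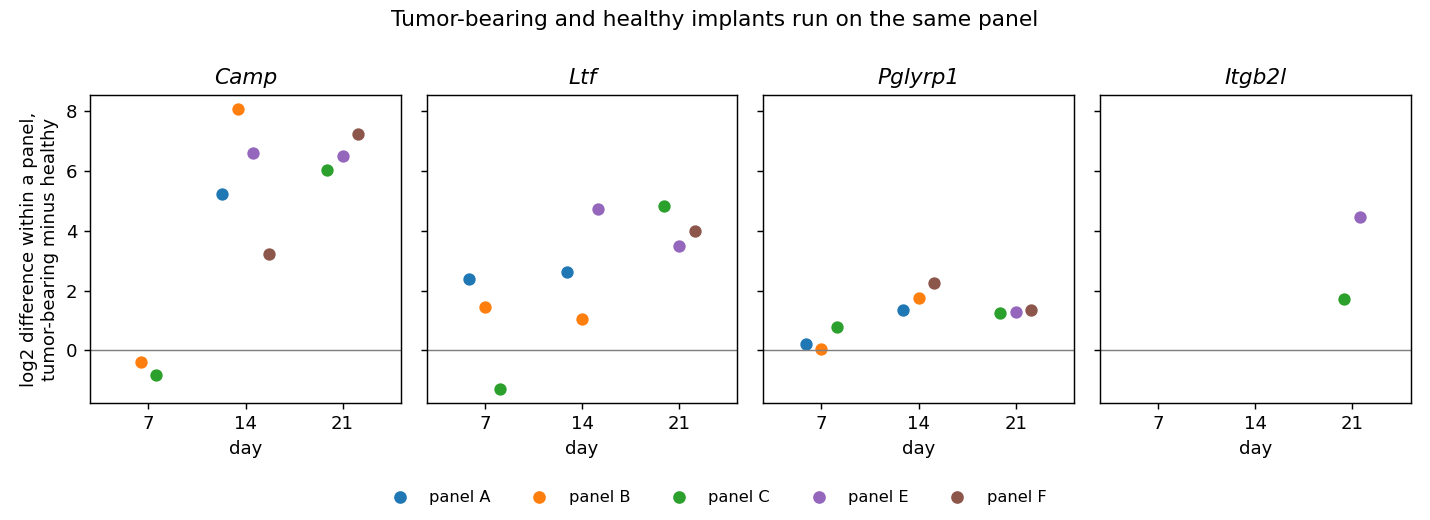
Log2 difference, tumor-bearing minus healthy, within pairs of samples matched for day and panel (y axis), by day (x axis) and panel (colour); a pair is shown where both samples gave a Cq. All pairs of days 14 and 21 lie above 0, and the 2 Camp pairs of day 7 lie below it.

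Genes of the other neutrophil compartments were read from lists, with the same limma fit over all assays, and no listed gene fell in any contrast. Of 5 listed primary granule genes, 2 were measured. These were Ela2 (now Elane, neutrophil elastase) and Prtn3 (proteinase 3), proteases made before the secondary granule proteins. Both were higher in tumor-bearing than in healthy mice at day 14, by 3.71 ± 0.76 (adjusted p = 0.00924) and 4.39 ± 0.80 (adjusted p = 0.00588). The same held at day 21, by 5.44 ± 1.01 (adjusted p = 0.00998) and 5.76 ± 1.06 (adjusted p = 0.0103). Across all assays, 1.70% were called higher at day 14, 1.05% at day 21 and 0% at day 7, and the median difference was -0.08, 0.00 and 0.03 at these days. At day 7 the differences were -0.60 ± 1.14 for Ela2 and 0.63 ± 1.16 for Prtn3 (adjusted p = 0.997 each).

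Averaged over both conditions, Ela2 rose from day 7 to day 14 by 3.47 ± 0.70 (adjusted p = 0.0414) and to day 21 by 4.98 ± 0.78 (adjusted p = 0.00228), and Prtn3 rose to day 21 by 3.72 ± 0.81 (adjusted p = 0.0266). Of 9 other listed secondary and gelatinase granule genes, 2 were measured. Chi3l3, whose current symbol is Chil3, has a product that resembles chitinases. It was higher in tumor-bearing than in healthy mice at day 21, by 3.17 ± 0.69 (adjusted p = 0.0137). At day 14 its difference was 1.53 ± 0.44 (adjusted p = 0.079). Cybb, the membrane subunit of the NADPH oxidase, had 0.12 ± 0.13 at day 14 and 0.35 ± 0.21 at day 21 (adjusted p = 0.742 and 0.728).

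Of 8 genes of the neutrophil cytoplasm and surface, 5 were measured. In tumor-bearing minus healthy mice, 4 were called higher at day 14 while none passed at day 21. At day 14 the difference was 2.12 ± 0.38 for S100a9 (adjusted p = 0.00212) and 1.85 ± 0.46 for S100a8 (adjusted p = 0.0285). It was 1.40 ± 0.30 for Fpr1, a formyl peptide receptor (adjusted p = 0.00924), and 1.39 ± 0.26 for Il8rb (now Cxcr2), a chemokine receptor (adjusted p = 0.00347). Day 21 has 3 mice per condition against 8 at day 14, and its errors are larger. At day 21 the smallest p belonged to S100a9, at 1.70 ± 0.59 (adjusted p = 0.268). S100a8 had 1.61 ± 0.72, Fpr1 0.67 ± 0.47 and Il8rb 0.60 ± 0.39 there. Il8ra, the remaining gene of the list, had 0.21 ± 0.22 at day 14 (adjusted p = 0.761). At day 21 its difference was below 0, at -0.53 ± 0.35 (adjusted p = 0.728). Whether the differences of these genes changed from day 14 to day 21 was not tested. The list had a median difference of 1.40 at day 14 and 0.67 at day 21, against 4.05 and 5.60 for the 2 primary granule genes. Whether the lists differ was not tested. Averaged over both conditions, S100a9 rose from day 14 to day 21 by 1.57 ± 0.36 (adjusted p = 0.0328), and Il8ra (now Cxcr1) from day 7 to day 21 by 1.23 ± 0.26 (adjusted p = 0.0196).

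S100a9, S100a8, Fpr1 and Il8rb, like Pglyrp1, had their lowest group mean in healthy mice of day 14. The mean log2 relative quantity of S100a9 was -0.17, 0.23 and 1.64 in tumor-bearing mice of days 7, 14 and 21. In healthy mice of those days it was -0.61, -1.85 and -0.05. From day 7 to day 14 the means of S100a8, Fpr1 and Il8rb went from -0.19 to -1.27, -4.24 to -5.03 and -4.14 to -4.95 in healthy mice. In tumor-bearing mice they went from 0.29 to 0.54, -3.59 to -3.63 and -3.83 to -3.57. These changes within a condition were not tested.

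The integrin and receptor partners of these proteins did not pass the test. Of 9 listed, 5 were measured: Itgb2 and Itgam, which form the integrin Mac-1, Itgal, P2rx7 and Trem1, a receptor that binds Pglyrp1. Trem1 had the smallest p at day 14, with 1.05 ± 0.40 (adjusted p = 0.243). Itgb2, the classical relative of Itgb2l, had 0.04 ± 0.09 at day 14 and 0.03 ± 0.15 at day 21 (adjusted p = 0.911 and 0.995). The list's median difference was 0.20, 0.09 and 0.07 at days 7, 14 and 21.

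Of 7 transcription and growth factors of granulocytes, 4 were measured (Cebpa, Cebpb, Csf3 and Csf2), and none passed between conditions at any day. Csf3, the granulocyte growth factor G-CSF, had -0.90 ± 0.57 at day 14 and -1.79 ± 0.995 at day 21 (adjusted p = 0.618 and 0.677). Csf2, the growth factor GM-CSF, rose between days averaged over both conditions, by 1.39 ± 0.32 from day 14 to day 21 (adjusted p = 0.0328) and 1.74 ± 0.38 from day 7 to day 21 (adjusted p = 0.0196). Cebpa and Cebpb are members of the C/EBP family whose motif was searched above. Cebpb had 1.10 ± 0.90 at day 14 (adjusted p = 0.691).

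Markers of other cell types were measured in part, and none passed between conditions at any day: 0 of 5 monocyte and macrophage markers, 0 of 4 T cell markers, 0 of 4 mast cell, basophil and eosinophil markers, and Krt8, the 1 epithelial marker measured. Their median differences at day 14 were 0.14, -0.63 and -0.52, and -3.64 ± 1.25 for Krt8 (adjusted p = 0.196), which had a Cq in 23 of 28 samples. The smallest p of the macrophage list at day 14 was that of Cd14, at 0.14 ± 0.13 (adjusted p = 0.709), that of the T cell list was of Foxp3, at -1.07 ± 0.40 (adjusted p = 0.243), and that of the mast cell list was of Ccr3, at -0.53 ± 0.22 (adjusted p = 0.298). At day 21 the median differences of the first 3 lists were 0.47, -0.51 and -0.19.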

How the data were processed

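Reverse-transcribed RNA of 28 implants was run on 7 physical panels (A to G here) of the TaqMan OpenArray Mouse Inflammation Panel, per the labels' protocols. Panel G holds 4 tumor-bearing and panel D 4 healthy samples of day 14, and the other panels hold both conditions. The authors deposited raw Cq, which are cycle numbers before any normalization, per the file headers. The authors' normalized values are linear ratios to a reference, per the file headers, and a further deposited table gives their fold change for each day, tumor-bearing over healthy. The values showed that each ratio is 2 to the power of the mean Cq of 5 reference assays, which are not named here, minus the Cq of the assay. The number of PCR cycles and the software behind the Cq are not stated in the labels or headers, and the number of mice limits the precision.

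Of 18144 reactions, 15900 gave a Cq, and the rest were left missing. The log2 ratios were fitted with limma 3.58.1 in R 4.3.3, with 1 mean per group over all 28 samples and the panel as a random block (statmod 1.5.0, correlation 0.054). Assays entered if 1 group had values in 50% or more of its samples (609 assays), and contrasts needed 2 values in every group they use. P-values were adjusted by Benjamini-Hochberg over all assays of a contrast, and rose or fell means an adjusted p under 0.05. The scripts were tested on simulated data. Correlations used exact permutation tests (scipy 1.17.1).

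Named are the 4 genes, the 3 assays most like each, and of 9 gene lists the members past the threshold or the smallest p. The S100a8 assay most like Pglyrp1 is the second of 2 for that gene. Lists hold the assay with the most values per gene. Csf2, Csf3 and Ccr3 also had 2 assays each, and the values of their second assays are not given. The genes and lists were chosen with earlier results of these data known, and the other listed genes named were chosen after their values were seen. Alternatives were no panel block or a fixed one, leaving out panels D and G, other normalizers, filters, treatments of missing or late reactions, fits on the samples of the days compared, and leaving out each mouse in turn.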

Additional observations from a re-analysis of the deposited data

Results flagged for a closer look

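The difference in Camp between tumor-bearing and healthy samples run on the same panel was below 0 in the measured pairs of day 7 and above 0 in those of later days. In the 2 pairs of day 7 with both values the tumor-bearing sample was lower, by -0.83 and -0.41 on the log2 scale. In the pair on panel A the tumor-bearing sample gave a Cq of 28.1 and the healthy sample gave none. The fitted day 7 difference was -0.48 ± 1.25, and it was 0.0309 with the panel as a fixed block and 3.57 where missing reactions took the largest Cq, so its direction at day 7 is not settled. In the 4 pairs of day 14 it was higher by 3.21 to 8.07, and in the 3 pairs of day 21 by 6.02 to 7.23. The mean pair difference was 6.39 larger at day 14 than at day 7 and 7.21 larger at day 21 than at day 7. This change between days was not tested. The 2 groups of day 14 gave 7 sets of values of the 4 genes, and in none did a single highest or lowest mouse pass Dixon's 95% critical value, which does not bear on clusters of several mice.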

How the results depend on the processing

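No paired analysis was possible because replicate numbers run from 1 to 28 and no number is shared between groups; samples were matched by panel instead, as a block in the fits and in pairs. At days 14 and 21 the tumor-bearing minus healthy differences of Camp, Ltf and Pglyrp1 were above 0 under every alternative that gave a value. For Itgb2l the same held at day 21, the only day with an estimate. Where reactions without a Cq took the largest Cq, the differences were 3.57 (Camp, day 7), 4.66 (Ltf, day 14), 3.94 (Pglyrp1, day 14) and 6.39 (Itgb2l, day 21), and with the panel as a fixed block Camp had 0.0309 at day 7. Leaving out 1 mouse gave -0.62 to -0.28 (Camp), 0.01 to 1.49 (Ltf) and 0.09 to 0.57 (Pglyrp1) at day 7, 4.48 to 5.42, 1.97 to 2.67 and 1.52 to 1.78 at day 14, and 6.24 to 6.96, 3.902 to 4.29 and 1.18 to 1.37 at day 21, with 2.80 to 3.81 for Itgb2l. Day changes of Camp averaged over both conditions passed the threshold from day 7 to day 21 without a panel block (3.30, adjusted p = 0.0413), without the detection filter (3.16, adjusted p = 0.0486), with Cq above 30 missing (3.24, adjusted p = 0.0302) and fitted on days 7 and 21 alone (3.30, adjusted p = 0.000318), as did Pglyrp1 in the last fit (0.88, adjusted p = 0.0225). Over all alternatives the limma adjusted p for this step was 0.000318 to 0.438 for Camp and 0.0225 to 0.965 for Pglyrp1. Without the 3 samples with the fewest measured assays, an alternative chosen after seeing the data, the change from day 14 to day 21 was 2.42 for Camp and 0.89 for Pglyrp1 (adjusted p = 0.0186 each). The change of Pglyrp1 from day 7 to day 14 turned to -0.0194 without a panel block, -0.0425 with raw Cq centred on the sample medians, -0.89 with the largest Cq, -0.0098 with 11 reference assays (also chosen after seeing the data) and -0.0201 without the 3 samples. Leaving out 1 mouse gave 1.10 to 1.58 (Camp), 0.87 to 1.61 (Ltf) and -0.12 to 0.11 (Pglyrp1) from day 7 to day 14, 1.54 to 2.13, 0.45 to 0.80 and 0.83 to 0.96 from day 14 to day 21, and 2.95 to 3.31, 1.45 to 2.19 and 0.76 to 0.997 from day 7 to day 21. Pglyrp1 passed from day 14 to day 21 in 5 of 22 such fits (adjusted p 0.0187 to 0.123), those without tumor-bearing replicate 20 or 21 or healthy replicate 10, 12 or 13. The r of Ltf and Pglyrp1 in tumor-bearing mice ran from 0.78 to 0.91, of Ltf and Itgb2l from -0.54 to 0.19 and of Pglyrp1 and Itgb2l from -0.47 to 0.35. In healthy mice r ran from 0.26 to 0.95 (Camp and Ltf), -0.78 to -0.19 (Camp and Pglyrp1) and -0.12 to 0.78 (Ltf and Pglyrp1), and those of Camp and Ltf and of Ltf and Pglyrp1 turned to -0.38 and -0.0402 with the largest Cq. Counts of assays past the threshold moved most. Between conditions, 14 passed at day 14 against 4 with the largest Cq, 3 among assays measured in all 28 samples, 6 on day 14 alone and 8 to 15 with 1 mouse left out. At day 21, 7 passed against 0, 1 and 1 to 7 (largest Cq, complete assays, 1 mouse left out), and at day 7 the count was 0 in all fits with 1 mouse left out, with 12 assays at an unadjusted p under 0.05. From day 7 to day 14, 15 passed against 3 (fixed block), 4 (without panels D and G), 2 (centred Cq), 0 (largest Cq), 8 (complete assays), 43 (without the 3 samples), 0 (own days) and 0 to 22 (1 mouse left out). From day 14 to day 21, 5 passed against 1, 1, 0, 2 and 65 (fixed block, without D and G, largest Cq, complete assays, without the 3 samples), 1 with 11 reference assays, 2 on its own days and 1 to 21 with 1 mouse left out. From day 7 to day 21, 12 passed against 2 (fixed block), 0 (largest Cq), 19 (no filter), 23 (own days) and 1 to 14 (1 mouse left out). Higher calls at day 14 were 10 of 14, 12 of 14 with centred Cq and 10 of 12 with 11 reference assays, and the median of all assays was -0.08 and, with centred Cq, 0.03. From day 7 to day 21 higher calls were 9 of 12, and 7 of 13 with centred Cq. Itgb2l was detected in 2 of 14 healthy samples with a Cq up to 30, against 5 at any Cq. The 4 genes have no value where only assays measured in all 28 samples are kept, and Itgb2l none with late reactions missing. The cause of these changes was not tested. Late Cq limits Itgb2l at days 7 and 14 and in healthy mice of day 21, and Camp in healthy mice of day 14.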
